A study of Mus musculus with 6 samples.

Results

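The genes that make and house melanin were compared between Tyr-H and Tyr-L cells in 10 members of the pathway. The members were chosen by gene name as 3 enzymes (*Tyr*, *Tyrp1*, *Dct*), 4 proteins of the melanosome matrix and membrane (*Pmel*, *Mlana*, *Gpnmb*, *Gpr143*) and 3 melanosomal channels and transporters (*Oca2*, *Slc45a2*, *Slc24a5*). All 10 were found among the 20788 genes listed in at least 1 library, and all 10 were listed in each of the 6 libraries. RNA had been sequenced from 3 libraries of Tyr-L cells and 3 of Tyr-H cells, which are subclones of B16, a pigmented melanoma line of the C57BL/6 mouse. The labels give Tyr-L cells low and Tyr-H cells high tyrosinase activity, and both were grown in low-glucose DMEM with serum and antibiotics, with no other treatment or genetic change named. Subclones had been picked as colonies from sparsely seeded dishes and divided by their use of tyrosine, with the expression of tyrosinase and its relatives measured alongside, so a higher *Tyr* level in Tyr-H cells belongs to the way in which the groups were defined. The sources used here do not say how many subclones or cultures stand behind the 3 libraries of a group, and the spread between libraries may be technical.

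Melanin is made in melanosomes, organelles related to lysosomes. Tyrosinase, the product of *Tyr*, carries out the rate-limiting oxidation of tyrosine, dopachrome tautomerase (*Dct*, also named TYRP2) converts dopachrome, and TYRP1 acts further down the eumelanin branch and stabilizes tyrosinase. PMEL forms the amyloid fibrils on which melanin is laid down, and channels and transporters of the melanosome membrane set the pH and ion content in which tyrosinase works. MITF, the master regulator of the lineage, binds E-box elements named M-boxes in the promoters of several of these genes.

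The promoters of the enzyme genes are shown because these genes share the letters TCATGTGCT and yet differed in direction. The 250 bases before the start of *Tyr* (RefSeq, GRCm38.p6, chr7:87493513-87493762, minus strand) follow 5′ to 3′, with capitals marking the element TCATGTG.
Tyr promoter: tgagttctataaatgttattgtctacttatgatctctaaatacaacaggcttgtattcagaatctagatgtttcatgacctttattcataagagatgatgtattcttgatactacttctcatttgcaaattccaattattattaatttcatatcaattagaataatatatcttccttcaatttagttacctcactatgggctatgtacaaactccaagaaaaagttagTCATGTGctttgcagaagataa
The windows around each element are set below one another on the strand of the gene, with the 7 bases of TCATGTG, or of CACATGA where it lies on the opposite strand, in capitals.
Tyr (chr7:87493517-87493545, minus strand): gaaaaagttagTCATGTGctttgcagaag
Tyrp1 (chr4:80834155-80834183, plus strand): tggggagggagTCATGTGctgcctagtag
Dct, nearer site (chr14:118052380-118052408, minus strand): tgcacttagggTCATGTGctaacaaagag
Dct, farther site (chr14:118052461-118052489, minus strand): cttggctgggaCACATGAgcccaataaag
Slc24a5 (chr2:125068103-125068126, plus strand): aggagactgctCACATGAttcagc
Counted back from the start of the transcript, the first base of the element lay at 22 in *Tyr*, at 47 in *Tyrp1*, at 151 and 232 in *Dct* and at 13 in *Slc24a5*. These starts are those of RefSeq and need not be those of the GENCODE genes, whose coordinates are given with each gene. That of *Tyrp1* lies inside the GENCODE gene, so the *Tyrp1* window is downstream of the GENCODE start. RefSeq promoters were found for 6 of the 10 genes, which are these 4, *Oca2* and *Gpnmb*, and not for *Pmel*, *Mlana*, *Gpr143* and *Slc45a2*. TCATGTG, searched on both strands, was in 4 of the 6 and in 3.25% of all 32851 promoters of the table. The longer TCATGTGCT, which contains it, was in *Tyr*, *Tyrp1* and *Dct* and in 0.335% of all promoters. The same letters with AG before them were in *Tyr* and *Tyrp1*, not in *Dct*, and in 0.0213% of all promoters. The shorter CATGTG, which all of these contain, was also in the *Oca2* promoter and in 12.3% of all promoters, and no copy was found in that of *Gpnmb*. These matches describe the letters of the windows and do not show binding in these cells.

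The levels below are FPKM, fragments normalized by the authors for transcript length and for the fragments of the library. Genes are set side by side on this scale. The length used for each gene is not given in the sources used here, and comparisons between genes depend on it. The tables give no read depth. A rough estimate from the lowest values inside a fixed window was 18800000 to 21200000 fragments per library. The window itself bounds this estimate, so it is not an independent measure of depth. The lineage markers *Mitf*, *Sox10* and *Pax3* were at 23.7 FPKM or more in every library, the summed level of 8 lineage markers (these 3 and 5 of the members) ran from 7375 to 7691 FPKM over the Tyr-L and from 5472 to 5992 FPKM over the Tyr-H libraries, and all 8 reached 1 FPKM. Of 8 leukocyte markers, *Cd68* alone reached 1 FPKM and *Ptprc*, *Adgre1*, *Csf1r*, *Itgam*, *Cd14* and *Cd3e* were listed in no library, and the summed level of the 8 ran from 3.44 to 4.18 FPKM over the Tyr-L and from 4.44 to 4.83 FPKM over the Tyr-H libraries. None of the 4 keratinocyte, 4 fibroblast and 4 endothelial markers reached 1 FPKM. The part of other cell types in the results was not tested. A smaller share of pigmented cells and less pigment gene RNA in each cell cannot be told apart in such bulk libraries. Values were tested with limma on log2(FPKM + 0.1) over the 14336 genes whose mean over the libraries reached 0.1 FPKM. Log2 fold changes are Tyr-H over Tyr-L. A gene is said to have risen or fallen at an adjusted p (Benjamini-Hochberg) of at most 0.05, and to be called when the log2 fold change also reached 1 in either direction. Means are given with the SD of 3 libraries.

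Of the 10 genes, 2 rose (*Tyr* and *Gpnmb*), 7 fell (*Oca2*, *Gpr143*, *Slc24a5*, *Pmel*, *Dct*, *Mlana* and *Tyrp1*) and *Slc45a2* did not pass the test. Called were *Tyr*, the higher, and *Oca2*, the lower. These 9 of 10 stand beside 57.8% of all tested genes at the same adjusted p (17.9% higher and 39.9% lower in Tyr-H cells), and the 2 called genes beside 8.75% (2.96% higher and 5.78% lower). The groups did not overlap in 9 of the 10 genes, against 64.0% of all tested genes (20.2% higher and 43.8% lower in Tyr-H cells). The median log2 fold change of the 10 was -0.44, and that of all tested genes was -0.15. Other scalings of the libraries moved that last value to -0.01 (median ratio and quantile) or to -0.25 (equal totals), and the falls of *Tyrp1* and *Mlana* were within 0.1 of it. The split of all called genes moved too, with 33.9% of them higher in Tyr-H cells in the values as deposited, 25.5% after scaling to equal totals, 47.8% with median ratio scaling and 55.3% with quantile normalization.

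**Figure D1:**
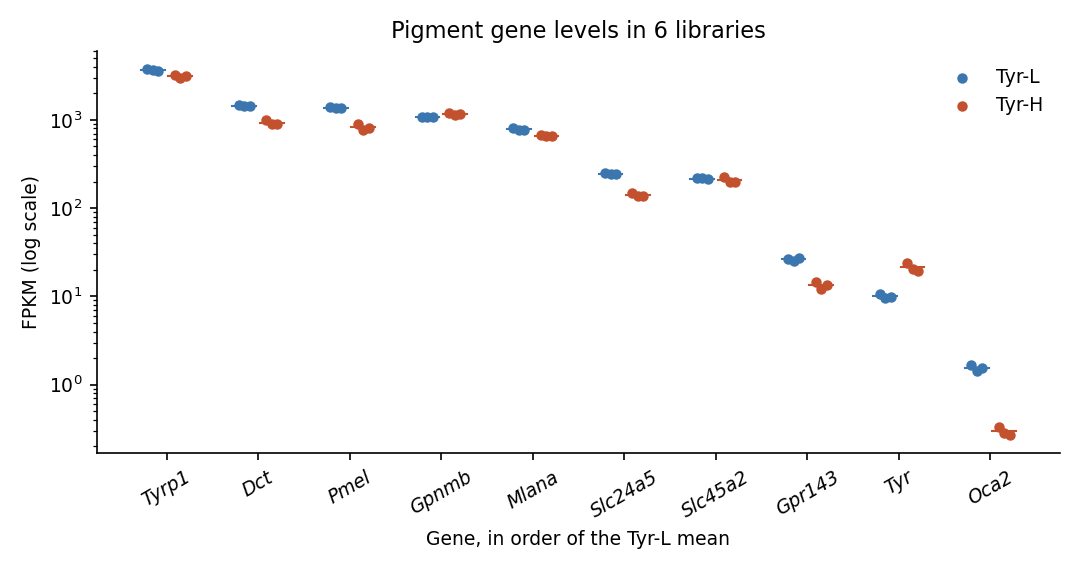
FPKM on a log axis of the 10 genes in the 3 Tyr-L (blue) and 3 Tyr-H (red) libraries, with points for libraries and bars for group means. The genes span from 3771 FPKM for Tyrp1 to 0.271 FPKM for Oca2, and Tyr lies near the bottom in both groups with its Tyr-H libraries above its Tyr-L libraries.

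*Tyr* (ENSMUSG00000004651) codes for a protein and lies on chromosome 7 (GRCm38, minus strand, 87424771 to 87493512). Its level was 10.7, 9.52 and 9.8 FPKM in Tyr-L libraries 1 to 3 and 23.8, 20.6 and 19.7 FPKM in Tyr-H libraries 1 to 3. Every Tyr-H library was thus above every Tyr-L library, and the difference was 1.08 on the log2 scale (95% CI 0.91 to 1.26, adjusted p = 4e-06 from limma). After scaling to equal totals it was 0.99, just under the fold-change threshold. *Tyr* was the ninth most abundant of the 10 genes in Tyr-L cells. Among all listed genes it held places 6173 to 6521 in Tyr-L libraries and places 3126 to 3724 in Tyr-H libraries.

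*Tyrp1* (ENSMUSG00000005994, plus strand of chromosome 4, 80834123 to 80851719) was the most abundant of the 10 genes in every library. It was at 3771, 3663 and 3569 FPKM in Tyr-L libraries 1 to 3 and at 3265, 2989 and 3113 FPKM in Tyr-H libraries 1 to 3. The groups did not overlap and *Tyrp1* fell by 0.23 on the log2 scale (adjusted p = 0.0028 from limma), a value that depended on the scaling. After median ratio scaling it did not pass (log2 fold change -0.08, adjusted p = 0.23), and after quantile normalization it was -0.58 (adjusted p = 7.4e-05). It ranked among the 15 most abundant genes of each library. *Dct* (ENSMUSG00000022129, minus strand of chromosome 14, 118012790 to 118052244) measured 1473, 1429 and 1436 FPKM in Tyr-L libraries 1 to 3 and 990, 899 and 902 FPKM in Tyr-H libraries 1 to 3. The groups were apart here too, and *Dct* fell in Tyr-H cells by 0.64 on the log2 scale (95% CI -0.74 to -0.54, adjusted p = 4.2e-06 from limma), from 1446 ± 23.8 to 930 ± 51.6 FPKM (SD, n = 3). The antisense gene *4930435M08Rik* overlaps it and was listed in no library.

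The 3 enzymes therefore had very unequal RNA levels, and *Tyr* RNA rose where *Dct* RNA fell. *Tyrp1* RNA fell as well, though not past the test after median ratio scaling. *Tyrp1* was 353, 385 and 364 times the level of *Tyr* in the Tyr-L libraries and 137, 145 and 158 times in the Tyr-H libraries. *Dct* was 138 to 150 times the level of *Tyr* in Tyr-L and 41.7 to 45.9 times in Tyr-H libraries. In the sum of the 3 enzymes, *Tyr* made up 0.187% to 0.203% in Tyr-L and 0.487% to 0.555% in Tyr-H libraries. *Tyrp1* and *Dct* also fell to a different extent, since *Tyrp1* was 2.49 to 2.56 times *Dct* in Tyr-L and 3.3 to 3.45 times in Tyr-H libraries.

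**Figure D2:**
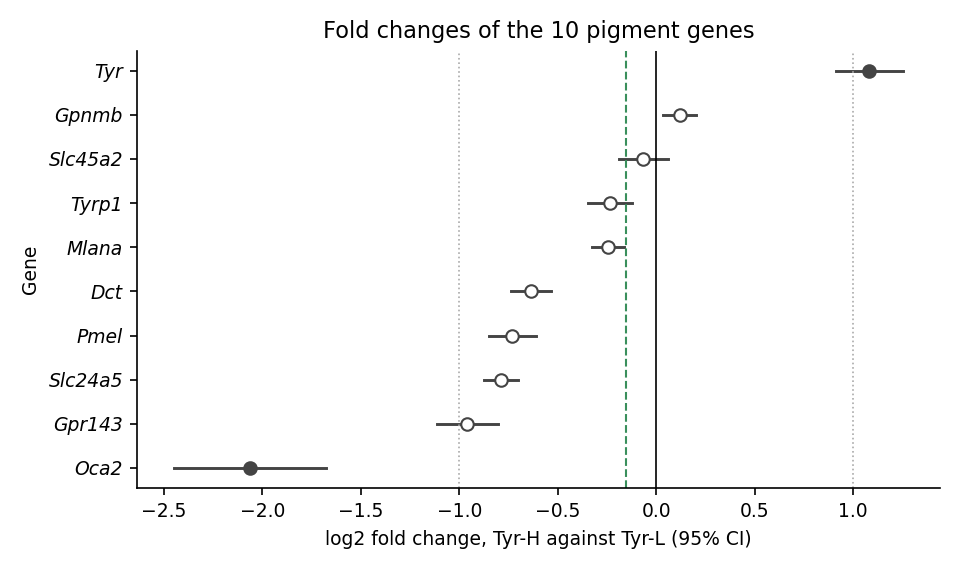
Log2 fold changes of the 10 genes (Tyr-H over Tyr-L) with their 95% CI from limma. Filled points are called, dotted lines mark the fold-change threshold, and the dashed line marks the median of all tested genes at -0.15. Tyr alone lies beyond 1 on the right, Oca2 lies at -2.06, and the interval of Slc45a2 includes 0.

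Among the matrix and membrane proteins, *Pmel* and *Gpr143* fell most. *Pmel* (ENSMUSG00000025359, plus strand of chromosome 10, 128704195 to 128720238) was at 1383, 1374 and 1354 FPKM in Tyr-L libraries 1 to 3 and at 898, 776 and 807 FPKM in Tyr-H libraries 1 to 3. The libraries of the groups were well apart and the difference was -0.73 on the log2 scale (95% CI -0.85 to -0.61, adjusted p = 4.7e-06 from limma). *Pmel* overlaps *Cdk2* and *Dgka* on the opposite strand, and reads were not stated to be counted by strand. *Cdk2*, a cell cycle kinase, had a mean of 100.4 ± 2.41 FPKM in the Tyr-L and 34.0 ± 2.68 FPKM in the Tyr-H libraries. *Dgka*, whose locus is joined to that of *Pmel* in the deposited tables, was at most 0.612 FPKM. The part of these overlaps in the values of *Pmel* was not tested.

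*Mlana*, which encodes a small membrane protein (MART-1) needed for the maturation of PMEL, lies on the plus strand of chromosome 19 (ENSMUSG00000024806, 29697824 to 29708634). It was at 810, 767 and 778 FPKM in Tyr-L libraries 1 to 3 and at 676, 654 and 658 FPKM in Tyr-H libraries 1 to 3. These groups did not overlap, and *Mlana* fell by 0.24 on the log2 scale (adjusted p = 0.0003 from limma). After median ratio scaling the log2 fold change was -0.09 (adjusted p = 0.062), and after quantile normalization -0.43 (adjusted p = 0.00011). Over the 6 libraries *Mlana* and *Tyrp1* had the most alike patterns of any 2 of the 10 genes, with a root mean square difference of 0.029 between their centred log2 levels.

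*Gpnmb*, a glycoprotein related to PMEL that is also made by macrophages, lies on the plus strand of chromosome 6 (ENSMUSG00000029816, 49036546 to 49070929). Its level was 1077, 1079 and 1074 FPKM in Tyr-L libraries 1 to 3 and 1207, 1133 and 1169 FPKM in Tyr-H libraries 1 to 3. The Tyr-H libraries were all higher, by 0.12 on the log2 scale (95% CI 0.04 to 0.20, adjusted p = 0.02 from limma). The adjusted p was above 0.05 in 9 of the 16 alternative fits, among them those without Tyr-L replicate 1, 2 or 3 or Tyr-H replicate 1 (0.055 to 0.062), and the sign turned after quantile normalization (log2 fold change -0.02, adjusted p = 0.76). The macrophage markers *Adgre1*, *Csf1r* and *Itgam* were listed in no library, and *Cd68*, a lysosomal marker of macrophages, was at 3.06, 3.92 and 3.87 FPKM in Tyr-L libraries 1 to 3 and at 4, 4.29 and 4.45 FPKM in Tyr-H libraries 1 to 3. *Lyz2*, of the same marker list, was at 0.378, 0.172 and 0.311 FPKM in Tyr-L and at 0.445, 0.341 and 0.384 FPKM in Tyr-H libraries 1 to 3.

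*Gpr143*, the ocular albinism receptor of the melanosome membrane, lies on the plus strand of chromosome X (ENSMUSG00000025333, 152781921 to 152808646). It was at 26.6, 25.1 and 27.1 FPKM in Tyr-L libraries 1 to 3 and at 14.8, 12.2 and 13.5 FPKM in Tyr-H libraries 1 to 3. It fell by 0.96 on the log2 scale (95% CI -1.11 to -0.80, adjusted p = 4.4e-06 from limma), just under the fold-change threshold, and was called without Tyr-H replicate 1 (-1.02) and after rescaling to equal totals (-1.06). Of the 4 genes of this class it was the least abundant, and in Tyr-H cells it lay below *Tyr*.

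Of the 3 channels and transporters, *Oca2* and *Slc24a5* fell and *Slc45a2* did not differ beyond the spread between libraries. *Oca2* (ENSMUSG00000030450, plus strand of chromosome 7, 56239760 to 56536518), a chloride channel gene that raises melanosomal pH, was at 1.68, 1.44 and 1.55 FPKM in Tyr-L libraries 1 to 3 and at 0.332, 0.287 and 0.271 FPKM in Tyr-H libraries 1 to 3. It was the lowest of the 10 in every library, with a difference of -2.06 on the log2 scale (95% CI -2.45 to -1.68, adjusted p = 1e-05 from limma). The means of FPKM without a pseudocount were 5.25 times apart. At the rough depth given above, its longest coding transcript of 3132 nt would have 16 to 102 fragments per library. *Oca2* thus had the fewest estimated fragments of the 10. With 1 FPKM added in place of 0.1 its log2 fold change was -0.98, under the threshold and smaller in size than that of *Tyr* (1.02). It contains *Gm44506* on the opposite strand, which was listed in 1 library.

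*Slc24a5*, a potassium-dependent sodium and calcium exchanger gene, lies on the plus strand of chromosome 2 (ENSMUSG00000035183, 125068124 to 125088677). It was at 248, 244 and 242 FPKM in Tyr-L libraries 1 to 3 and at 149, 138 and 138 FPKM in Tyr-H libraries 1 to 3. With groups far apart, *Slc24a5* fell by 0.79 on the log2 scale (95% CI -0.87 to -0.70, adjusted p = 6.2e-07 from limma). It overlaps *Myef2* on the opposite strand and shares its deposited locus with it. *Myef2* had a mean of 69.7 ± 5.13 FPKM in the Tyr-L and 38.1 ± 2.61 FPKM in the Tyr-H libraries (-0.87 on the log2 scale), and the part of this overlap in the values of *Slc24a5* was not tested.

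*Slc45a2* (ENSMUSG00000022243, plus strand of chromosome 15, 11000721 to 11029233) encodes the transporter MATP, which is needed to keep melanosomes from becoming acidic. Its level was 217, 220 and 211 FPKM in Tyr-L libraries 1 to 3 and 228, 196 and 197 FPKM in Tyr-H libraries 1 to 3. The Tyr-H libraries lay on both sides of the Tyr-L libraries (exact permutation test, two-sided, p = 0.4). The log2 fold change was -0.07 with a 95% CI of -0.19 to 0.06 (adjusted p = 0.34 from limma), an interval that leaves out a change as large as that of *Slc24a5*. Its sign depended on the scaling (0.09 after median ratio scaling and -0.16, adjusted p = 0.043, after scaling to equal totals). Without Tyr-H replicate 1 the log2 fold change was -0.14 (adjusted p = 0.01).

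**Figure D3:**
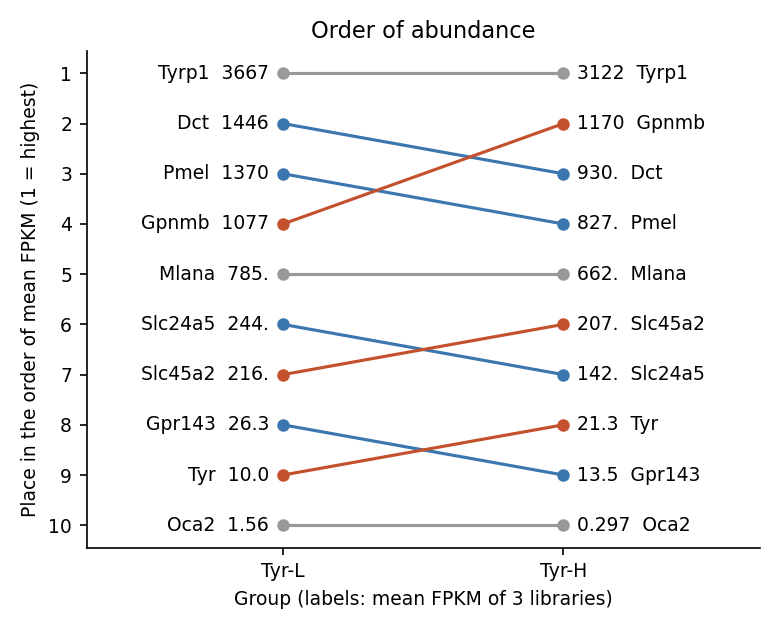
Place of the 10 genes in the order of mean FPKM in Tyr-L (left) and Tyr-H cells (right), with the mean FPKM of 3 libraries beside each name. Red lines join genes that moved up, blue lines those that moved down and grey lines those that kept their place. Gpnmb, Slc45a2 and Tyr moved up, and Dct, Pmel, Slc24a5 and Gpr143 moved down.

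In the order of abundance the genes fell into an upper group of 5 (*Tyrp1*, *Dct*, *Pmel*, *Gpnmb* and *Mlana*, 654 FPKM or more in every library), *Slc24a5* and *Slc45a2* between 138 and 248 FPKM, and *Gpr143*, *Tyr* and *Oca2* at 27.1 FPKM or less. The order was the same in all 3 libraries of a group, and no pair of neighbours overlapped in FPKM within either group. The closest neighbours were *Dct* and *Pmel*, whose means were 1.06 times apart in Tyr-L and 1.12 times in Tyr-H cells. In Tyr-H cells the lowest *Dct* value (898.98 FPKM, library 2) was barely above the highest *Pmel* value (898.44 FPKM, library 1). In Tyr-L cells the order was *Tyrp1*, *Dct*, *Pmel*, *Gpnmb*, *Mlana*, *Slc24a5*, *Slc45a2*, *Gpr143*, *Tyr* and *Oca2*. In Tyr-H cells *Gpnmb* stood second, ahead of *Dct* and *Pmel*, *Slc45a2* stood ahead of *Slc24a5*, and *Tyr* ahead of *Gpr143*. *Gpnmb* was 0.779 to 0.793 times the level of *Pmel* in Tyr-L and 1.34 to 1.46 times in Tyr-H libraries. *Slc45a2* was 0.874 to 0.904 times the level of *Slc24a5* in Tyr-L and 1.42 to 1.53 times in Tyr-H libraries. The 10 genes summed to 8702 to 9018 FPKM in Tyr-L and 6817 to 7453 FPKM in Tyr-H libraries, or 1.95% to 1.97% and 1.42% to 1.58% of all FPKM. *Tyrp1* took 41.0% to 41.8% of this sum in Tyr-L and 43.8% to 44.4% in Tyr-H libraries, and *Tyr* took 0.108% to 0.118% and 0.28% to 0.319%.

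To ask whether *Tyr* diverged from the other genes, its log2 ratio to each of them was taken within each library, which a constant factor on a library leaves unchanged apart from the 0.1 FPKM added to each value. The ratio was higher in every Tyr-H than in every Tyr-L library for all 9 genes. *Tyr* is in all 9 ratios, and its higher level belongs to the way in which the groups were defined. Of all tested genes 2.96% were called higher in Tyr-H cells. The share of all genes that would give a higher ratio was not taken, and the 9 ratios are not separate results. A 3 against 3 exact permutation test, two-sided, gave p = 0.1 for each, the smallest p this design allows, and 0.1 after adjustment over the 9 ratios. The ratio of *Tyr* to *Oca2* differed most, by 3.15 on the log2 scale, from 2.61 ± 0.03 in Tyr-L to 5.76 ± 0.03 in Tyr-H libraries (SD, n = 3). In FPKM with nothing added, *Tyr* was 6.36, 6.61 and 6.33 times the level of *Oca2* in Tyr-L libraries 1 to 3 and 71.6, 71.9 and 72.5 times in Tyr-H libraries 1 to 3. The log2 difference was 3.48 on that scale and 2.00 with 1 FPKM added. Of the other channels and transporters, *Slc24a5* gave a difference of 1.87 and *Slc45a2* of 1.15. Against *Pmel* the ratio went from -7.09 ± 0.08 to -5.27 ± 0.07 (SD, n = 3), a difference of 1.81, and against *Gpr143* it differed by 2.04. Among the enzymes the difference was 1.72 for *Dct* (-7.16 ± 0.06 to -5.44 ± 0.07; SD, n = 3) and 1.32 for *Tyrp1* (-8.51 ± 0.06 to -7.19 ± 0.10; SD, n = 3). *Mlana* gave 1.33. The smallest difference, 0.96, was that to *Gpnmb*, where the closest pair of libraries was still 0.76 apart. In linear terms the ratio of *Tyr* to another gene was thus between 1.95 times (*Gpnmb*) and 8.85 times (*Oca2*) higher in Tyr-H cells, with 0.1 FPKM added to each value.

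**Figure D4:**
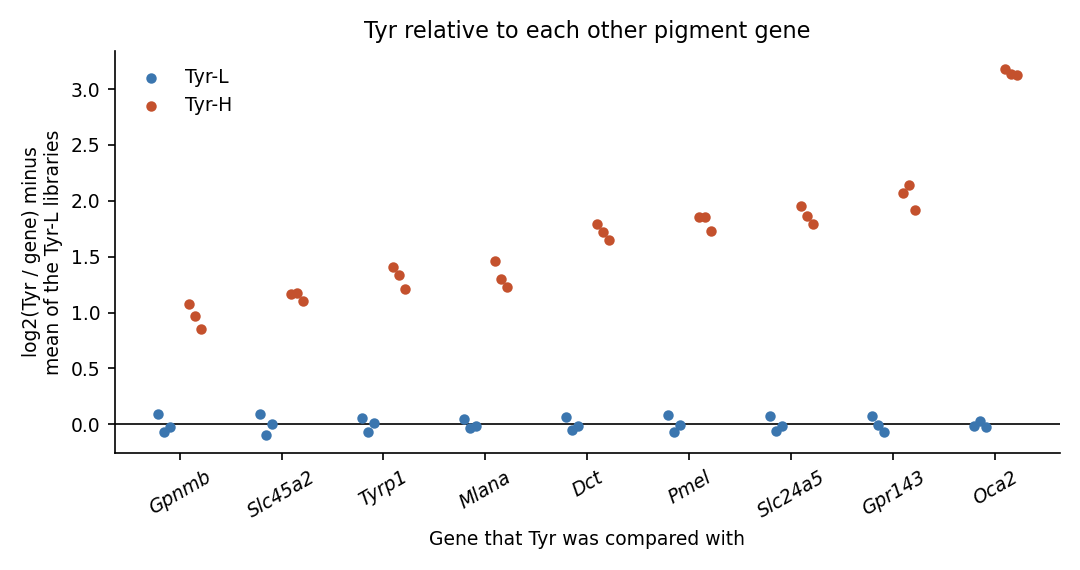
The log2 ratio of Tyr to each other gene, with 0.1 FPKM added to each value, in the 3 Tyr-L (blue) and 3 Tyr-H (red) libraries, with the Tyr-L mean set to 0. All Tyr-H libraries lie above all Tyr-L libraries for the 9 genes, from a mean of 0.96 for Gpnmb to 3.15 for Oca2.

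The 10 genes also differed in how alike their patterns were over the 6 libraries. After *Tyrp1* and *Mlana*, the pairs with the smallest root mean square difference of centred log2 levels were *Pmel* and *Slc24a5* (0.040) and *Dct* and *Pmel* (0.053). *Tyr* was nearest to *Gpnmb* among the members, at 0.489. Among the 11025 other genes that averaged 1 FPKM or more, the 5 most like *Tyr* by this measure were *Bcan*, *Abcb9*, *Ptgds*, *Abca8b* and *Dok7*, with differences of 0.0813 to 0.102. Their log2 fold changes lay between 0.95 (*Bcan*) and 1.15 (*Abca8b*). *Bcan*, which encodes the proteoglycan brevican, had a mean of 3.31 ± 0.349 FPKM in the Tyr-L and 6.51 ± 0.836 FPKM in the Tyr-H libraries. *Ptgds*, a prostaglandin D2 synthase gene, was the most abundant of these, with means of 241.7 ± 5.61 and 484 ± 14.7 FPKM.

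The other pigmentation genes were taken from 3 lists of 45 genes, of which 39 were tested. Of these, 6 rose and 25 fell, beside 17.9% and 39.9% of all tested genes, 2 were called higher and 6 lower, beside 2.96% and 5.78%, and their median log2 fold change was -0.25 against -0.15 for all tested genes. Median ratio scaling gave 8 that rose and 17 that fell, and equal totals 4 and 29. The 17.9% and 39.9% belong to the values as deposited, and matching shares at these scalings were not taken. The background moved as well. Tyr-H cells had the higher level in 33.9% of called genes as deposited, 47.8% with median ratio scaling and 25.5% with equal totals. Among 7 tested regulators 6 fell, 1 rose and 3 were called, all lower, with a median of -0.85 (of all tested genes 39.9% fell, 17.9% rose and 5.78% were called lower). *Mitf* was at 98.2, 86.7 and 86.6 FPKM in Tyr-L libraries 1 to 3 and at 26.8, 24.7 and 23.7 FPKM in Tyr-H libraries 1 to 3, so its groups were far apart in the direction opposite to *Tyr*. Its log2 fold change was -1.85 (95% CI -1.99 to -1.71, adjusted p = 1e-07 from limma). *Mc1r*, the melanocortin receptor of melanocytes, fell from a mean of 74.0 ± 1.08 to one of 26.1 ± 1.6 FPKM, and *Sox10*, a factor upstream of *Mitf*, from 112.2 ± 2.27 to 75.5 ± 2.3 FPKM (SD, n = 3). *Pax3*, also upstream of *Mitf*, rose by 0.13 on the log2 scale, from 31.7 ± 0.0241 to 34.8 ± 0.499 FPKM, and by 0.04 after scaling to equal totals, where it did not pass (adjusted p = 0.42). *Kit*, named after its values were seen, was the third called regulator (log2 fold change -1.13), and missed the fold-change threshold with a pseudocount of 1 FPKM (-0.54), without Tyr-H replicate 3 (-0.93), and with median ratio (-0.99) or quantile (-0.93) scaling. *Ednrb*, *Lef1* and *Irf4* did not reach the filter.

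Of the 21 genes of melanosome biogenesis and transport 15 fell and 1 rose, beside 39.9% and 17.9% of all tested genes, and the median log2 fold change was -0.27. After median ratio scaling 9 fell and 2 rose, and after quantile normalization 10 and 3. These counts cannot be set beside the 39.9% and 17.9%, because no such share was taken at either scaling. The median over every tested gene moved too, from -0.15 as deposited to -0.01 under both. The 2 called genes, beside 8.75% of all tested genes, were *Rab27a* and *Mlph*, which tether melanosomes to the myosin motor, at -1.17 and -1.16. The mean of *Rab27a* was 58.7 ± 1.47 FPKM in the Tyr-L and 26.1 ± 1.59 FPKM in the Tyr-H libraries, and that of *Mlph* 107.0 ± 2.43 and 47.9 ± 3.56 FPKM. The smallest changes were those of *Bloc1s5* (0.03) and *Hps6* (-0.04), and neither passed the test. The sign of *Hps6* and *Bloc1s5* depended on the scaling, and *Bloc1s5* passed as a rise after median ratio scaling (0.18, adjusted p = 0.025) and quantile normalization (0.18, adjusted p = 0.024).

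Of the 11 tested genes among the other transporters and pigment enzymes, 4 rose and 4 fell, beside 17.9% and 39.9% of all tested genes, with a median of -0.08. *Gch1*, which encodes the first enzyme of tetrahydrobiopterin synthesis, rose by 1.90 on the log2 scale, between means of 0.94 ± 0.187 and 3.74 ± 0.275 FPKM. *Slc7a11*, the cystine transporter gene, named after its values were seen, rose by 1.75 on the log2 scale, between means of 13.2 ± 0.658 and 44.9 ± 3.85 FPKM. *Slc24a4*, a paralog of *Slc24a5*, fell by 1.83 on the log2 scale, between means of 2.95 ± 0.161 and 0.764 ± 0.0952 FPKM. With a pseudocount of 1 FPKM the log2 fold changes of *Slc24a4* and *Gch1*, the low genes among these, were -1.17 and 1.29. The smallest changes were those of *Qdpr* (0.07) and *Mcoln1* (-0.08), which did not pass the test and whose signs depended on the scaling. *Qdpr* passed as a rise after median ratio scaling (0.22, adjusted p = 0.0041) and quantile normalization (0.16, adjusted p = 0.02), and *Mcoln1* as a fall after scaling to equal totals (-0.17, adjusted p = 0.025).

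**Figure D5:**
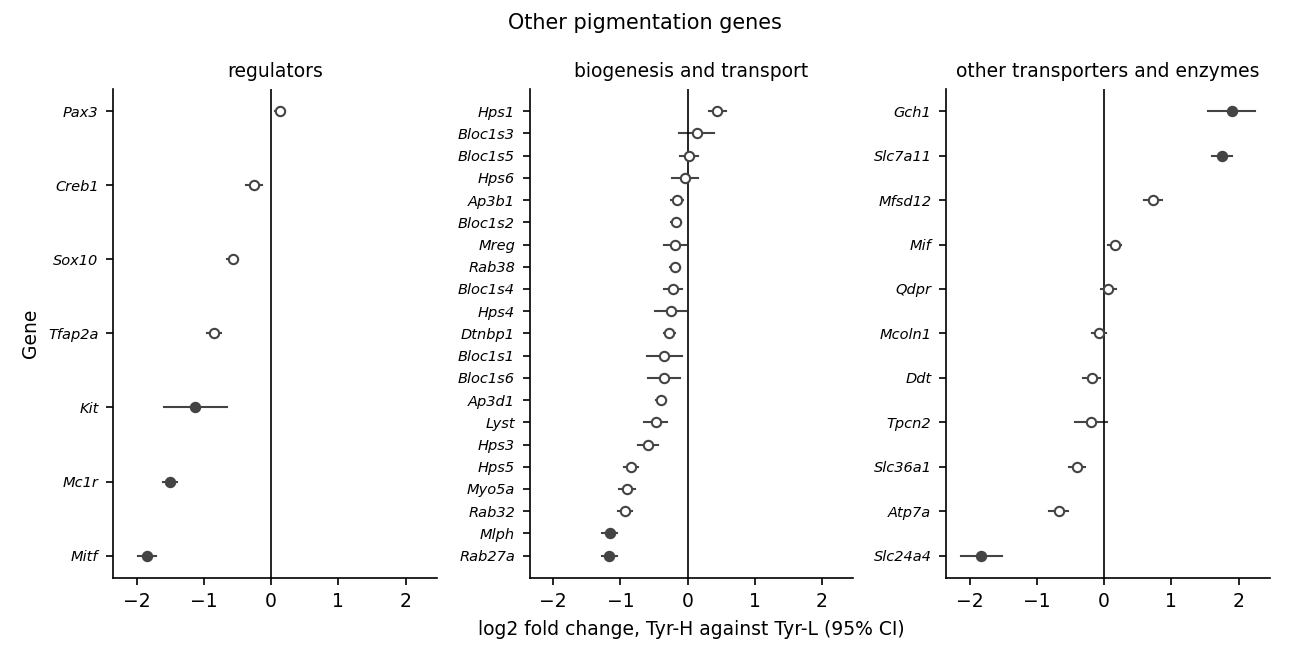
Log2 fold changes (Tyr-H over Tyr-L) of the 39 tested genes of the 3 other pigmentation lists with 95% CI from limma. Filled points are called. Mitf, Mc1r and Kit, Mlph and Rab27a, and Slc24a4 are called lower, and Gch1 and Slc7a11 are called higher.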

How the data were processed

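RNA of Tyr-L and Tyr-H B16 cells was made into mRNA libraries and read in pairs of 150 bp. For each library, the authors deposited a table of FPKM. The submitters' processing notes name Trimmomatic, HISAT and HISAT2 and the build GRCm38.p6, and the quantifier, the annotation and any counting by strand are not given in the sources used here. Groups and replicate numbers came from the labels. A gene not listed in a library was taken as 0 FPKM. Group means and SD were taken on the FPKM scale.

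Tyr-H was compared with Tyr-L by limma 3.58.1 in R 4.3.3 (lmFit, eBayes with a variance trend, two-sided) on log2(FPKM + 0.1) for genes whose mean reached 0.1 FPKM, with Benjamini-Hochberg adjustment over all tested genes. Fold changes on this scale understate those of low genes. The fit was tested on simulated data. Depth was estimated from genes with 1 annotated transcript of at least 1500 nt. The median of their lowest values of FPKM times length, inside a fixed window, was used. The window bounds the estimate, which is approximate and covers counting error only. The low values were not whole multiples of this median, so no count test was run. Ratios to *Tyr* had exact permutation tests. Median absolute log2 differences between libraries were 0.0953 to 0.114 within groups and 0.315 to 0.371 between groups, and no pair shared more than 1 identical value. Coordinates are from GENCODE M21 (GRCm38) and count from 1, and promoters are from RefSeq (GRCm38.p6).

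Named are the 10 members, *Mitf*, *Sox10*, *Pax3* and *Mc1r*, of the other 2 lists the 2 genes with the largest and the 2 with the smallest change, the 5 genes most like *Tyr*, and genes that overlap a member. *Kit* and *Slc7a11* were named after their values were seen. The members and lists were chosen with earlier results of these data known. Alternatives were other pseudocounts, filters, scalings and variance estimates, the replicate number as a block, no fold-change threshold, and each library left out in turn. Ratios were computed in Python 3.11.15 (pandas 2.3.3, numpy 2.4.6) and tested with scipy 1.17.1.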

Additional observations from a re-analysis of the deposited data

How the results depend on the processing

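The directions of *Tyr*, *Dct*, *Pmel*, *Gpr143* and *Slc24a5* and an adjusted p of at most 0.05 held under all 16 alternative fits, and those of *Oca2* under all 15 that tested it. Scaling to equal totals gave *Tyr* 0.99 and *Gpr143* -1.06, so that 0 members were called higher and 2 lower, and a pseudocount of 1 FPKM gave *Oca2* -0.98, with 0 called lower, as with a filter at a mean of 1 FPKM, which *Oca2* does not reach. *Slc45a2* turned to 0.088 after median ratio scaling and *Gpnmb* to -0.017 after quantile normalization. At the adjusted p alone 2 members were called higher and 7 lower, and 6 and 25 of the other pigmentation genes. Because *Gpnmb* did not pass, 1 member rose with no filter, with equal totals, with quantile normalization, with no variance trend and with the replicate block. The log2 ratio of *Tyr* to *Gpr143* differed by 1.93 with a pseudocount of 1 FPKM, and that to *Oca2* by 3.48 with none and by 2.00 with 1 FPKM. The causes were not tested.

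Leaving out each library in turn gave *Gpr143* -1.02 (without Tyr-H replicate 1) to -0.89, 1 to 2 members called lower and 1 to 2 members that rose. Without Tyr-H replicate 1 *Slc45a2* passed as a fall (-0.14, adjusted p = 0.01). The deviations of same-numbered libraries correlated at 0.022, 0.013 and -0.083, so no strong shared deviation was seen. These values cannot tell whether same-numbered libraries were prepared together, which the sources used here do not say. With the replicate block *Gpnmb* did not pass (adjusted p = 0.082) and no other member changed its call. Depth limits *Oca2* most.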
